A study of Mus musculus with 9 samples.

Results

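The Hox cluster genes encode homeodomain transcription factors and lie in 4 clusters, HoxA, HoxB, HoxC and HoxD, on mouse chromosomes 6, 11, 15 and 2. A gene was taken as a member where the array annotation gave its probe set a single symbol made of Hox, the cluster letter and the paralog number. This rule found 37 Hox genes out of 19938 genes on the array, with 10 in HoxA and 9 in each of HoxB, HoxC and HoxD. Each of the 37 had 1 probe set. The probe set that Hoxb8 shares with Hoxb7 was left out and read 10.6 to 14.9 over the 9 arrays.

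The study asked how far nuclear transfer changes the transcriptome of an embryonal carcinoma line. Total RNA (100 ng an array) was hybridised to Affymetrix Mouse Gene 1.0 ST arrays from P19 embryonal carcinoma cells, from pluripotent stem cells derived from P19 cells, and from R1 embryonic stem (ES) cells, with 3 arrays a line. The labels name the derived cells only by their origin; they are written here as P19 NTES7, the line of the study's array comparisons, which was raised from 1 blastocyst cloned by transfer of a P19 nucleus and is thus a single clonal line. Every line was kept in ES medium with 15% FBS and 1000 units/ml leukemia inhibitory factor, with no differentiating agent; by the study's methods the stem cell lines, but not P19, were grown on mitotically inactivated mouse embryonic fibroblasts, and the ES cells taken for the arrays are described as feeder free, with no removal step given. In the labels the arrays of each line are biological repeats, and whether they came from separate cultures is not stated, so p-values measure the spread between arrays.

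In the embryo, Hox genes are switched on in the order in which they lie along each cluster, low paralog numbers first and in anterior tissues, high numbers later and towards the tail and the ends of the limbs. Retinoic acid, WNT signals and the caudal (Cdx) factors start this sequence, Polycomb complexes hold the clusters silent in undifferentiated ES cells, and trithorax proteins keep active genes on. The proteins bind DNA together with TALE homeodomain partners of the Meis, Pbx and Prep families. P19 cells are a common model in which retinoic acid induces neural differentiation and Hox transcription.

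The clusters also carry microRNA genes of the families miR-10 and miR-196, which are known to target Hox transcripts. Their mature 5p sequences from RefSeq (GRCm38.p6) are shown because the array carries probe sets for their precursors, with the seed, bases 2 to 8, in capitals. Mir10b lies at chr2:74726074-74726096 on the plus strand and Mir10a at chr11:96317186-96317208 on the plus strand. Mir196b lies at chr6:52230129-52230150 on the minus strand, and miR-196a comes from 2 genes, at chr11:96265187-96265208 and chr15:102973365-102973386, both on the plus strand.
mmu-miR-10a-5p: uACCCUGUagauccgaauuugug
mmu-miR-10b-5p: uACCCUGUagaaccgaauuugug
mmu-miR-196a-5p: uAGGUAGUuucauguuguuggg
mmu-miR-196b-5p: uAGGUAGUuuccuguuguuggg
The miR-10 pair shares the seed ACCCUGU and the miR-196 pair the seed AGGUAGU.

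Of the 5 members with the clearest differences between lines, the 3 whose promoters are in the RefSeq table (GRCm38.p6) are shown next, each as the 250 bases before a transcription start, 5′ to 3′ on the strand of the gene, with CG dinucleotides in capitals. Hoxd11 has 2 starts in the table. Hoxc6 and Hoxc13 are not in the table.
Hoxa5, chr6:52204588-52204837, minus strand: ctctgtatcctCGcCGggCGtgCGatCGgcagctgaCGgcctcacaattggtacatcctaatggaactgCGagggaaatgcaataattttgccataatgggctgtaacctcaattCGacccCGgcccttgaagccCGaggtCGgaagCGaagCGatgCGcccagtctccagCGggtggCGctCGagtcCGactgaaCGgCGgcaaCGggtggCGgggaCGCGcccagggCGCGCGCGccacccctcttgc
Hoxd11, chr2:74679308-74679557, plus strand: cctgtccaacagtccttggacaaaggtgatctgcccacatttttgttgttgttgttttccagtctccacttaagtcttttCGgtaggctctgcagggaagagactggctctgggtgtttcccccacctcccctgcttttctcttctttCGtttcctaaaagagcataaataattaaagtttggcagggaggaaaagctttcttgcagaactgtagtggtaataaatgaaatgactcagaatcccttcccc
Hoxd11, chr2:74682073-74682322, plus strand: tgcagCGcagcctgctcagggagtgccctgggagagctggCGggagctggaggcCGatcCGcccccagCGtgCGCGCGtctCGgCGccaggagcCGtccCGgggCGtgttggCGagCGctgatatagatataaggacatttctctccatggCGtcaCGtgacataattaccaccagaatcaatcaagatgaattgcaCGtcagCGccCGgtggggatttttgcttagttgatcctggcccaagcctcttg
Hoxd13, chr2:74667975-74668224, plus strand: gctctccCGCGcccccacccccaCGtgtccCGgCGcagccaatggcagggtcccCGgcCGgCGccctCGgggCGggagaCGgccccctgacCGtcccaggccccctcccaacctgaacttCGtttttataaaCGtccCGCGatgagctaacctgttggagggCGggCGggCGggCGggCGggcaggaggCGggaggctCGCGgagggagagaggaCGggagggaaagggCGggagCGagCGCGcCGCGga
The Hoxa5 stretch holds 28 CG dinucleotides, that of Hoxd13 holds 31, and the Hoxd11 stretches hold 2 and 20. The table held 23 promoters of 21 members, each of 300 bases around the start. They had a median of 15 CG dinucleotides (4 to 45), against a median of 7 (0 to 67) over all 32851 promoters, and 19 of the 23 lay above that median. Of HoxB only Hoxb1 and Hoxb4 are among them, and of HoxC only Hoxc4. On either strand the TATA box TATAAA stood in 3 of the 23 Hox promoters (13%) and 13.6% of all. The caudal-type motif TTTATGG stood in 1 (4.35%) against 2.75%, and the Pbx-Hox motif TGATTNA in 4 (17.4%) against 10.3%. Such small counts do not show a difference. TATAAA is present upstream of Hoxd13 and TGATTNA upstream of the Hoxd11 start with 20 CG dinucleotides. A match is a run of letters and says nothing on binding.

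Pou5f1 (Oct4) and Sox2, markers of pluripotent cells, read means of 1470 to 2200 and 542 to 884 over the 3 lines. The lines were not alike in the other listed markers. Of 10, 6 were above the array median on all 3 arrays of P19, and 10 in P19 NTES7 and in R1. Esrrb, Klf4 and Tfcp2l1 were below it in P19, at means of 9.26, 13 and 12.6, against 230, 126 and 333 in R1. Array medians ran from 16.5 to 17.5, and replicate arrays of a line differed by a median of 0.07 to 0.19 on the log2 scale. R1 array 3 stood apart from the other R1 arrays (median difference 0.19 and 0.17, against 0.07 between arrays 1 and 2). It gave the lowest R1 value for 30 of the 37 Hox genes (81.1%), against 61.6% of all probe sets whose mean lay below the median. Results for R1 are therefore also given without it.

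The Hox clusters were read in the lower part of the array in all 3 lines, as the plot of the 4 clusters shows. All 333 member values lay between 6.36 and 35.9 intensity units on the linear scale. Of the 37 genes, 29 (78.4%) were below the array median on all 9 arrays, against 41.4% of all probe sets and 40.4% of all genes. The median Hox gene stood at the 29.4th percentile of all probe sets by mean log2 intensity, with a range from 5.99 to 54.3, and 33 of the 37 lay under 50. An array without a detection call cannot separate a low transcript level from background, so a probe set below the median has no measured absence, and in a bulk sample few expressing cells and little RNA per cell cannot be told apart.

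**Figure D1:**
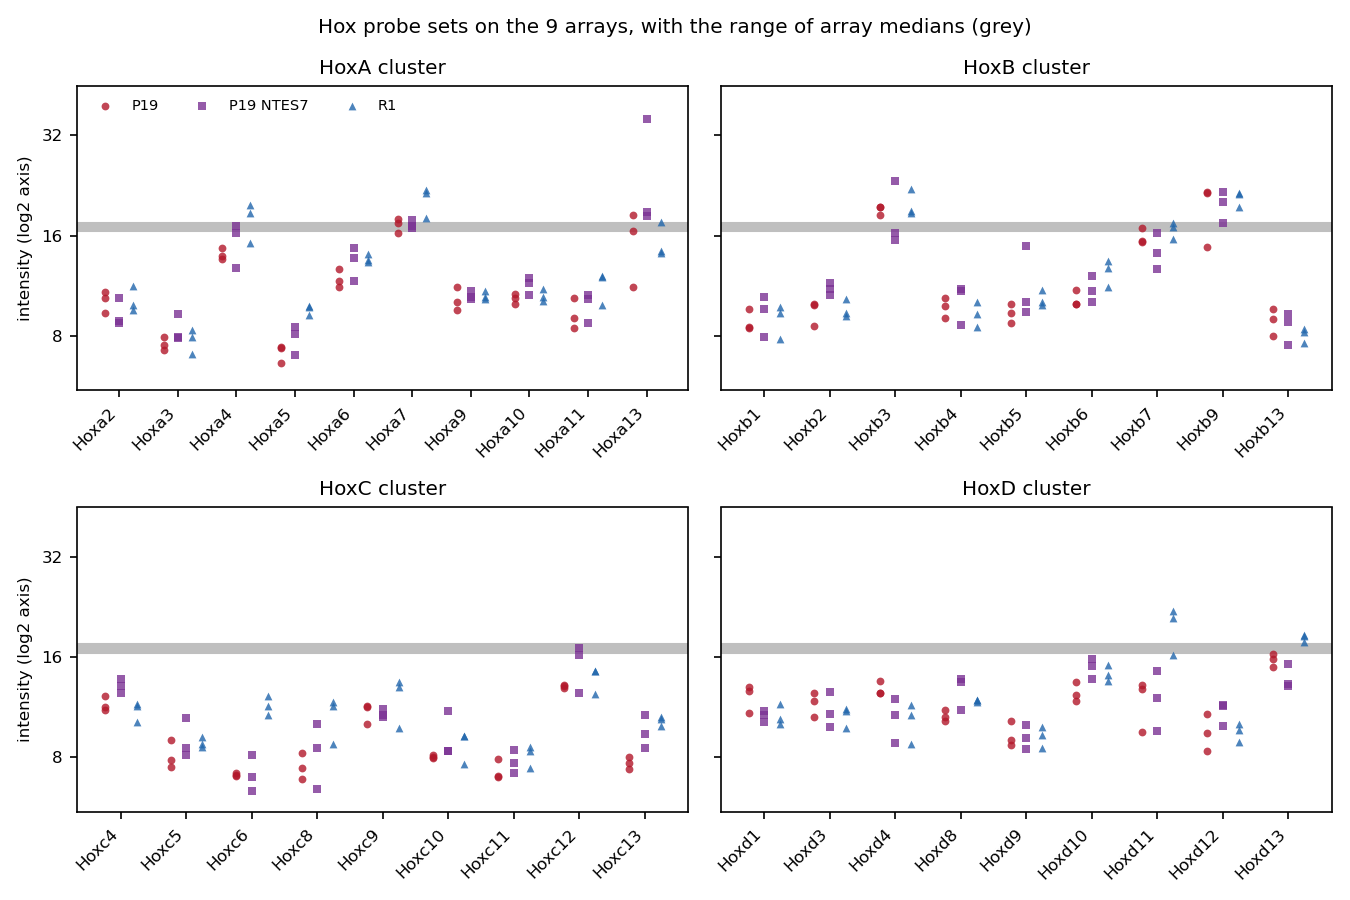
Intensity of each Hox probe set (log2 axis) on the 3 arrays of P19, P19 NTES7 and R1, by cluster, with the range of the 9 array medians (16.5 to 17.5) as a grey band. Of the 37 genes, 29 lie below the median on all 9 arrays, and the HoxC genes do so without exception.

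The levels of the lines were close. As log2 intensity minus the array median, the median Hox gene stood at -0.66 (SD of 3 arrays 0.05) for P19, -0.66 (0.01) for P19 NTES7 and -0.63 (0.06) for R1. Above the array median on all 3 arrays of a line stood 1 gene in P19 (Hoxb3, 2.70% of members against 47.6% of all probe sets), 1 in P19 NTES7 (Hoxa13, 2.70% against 46.9%) and 4 in R1 (Hoxa7, Hoxb3, Hoxb9 and Hoxd13, 10.8% against 47.0%). None of these reached the 60th percentile of all probe sets on all 3 arrays. Without R1 array 3, 6 genes stood above the median on both remaining R1 arrays. Along the axis, the anterior genes (paralog groups 1 to 3), the central genes (4 to 8) and the posterior genes (9 to 13) gave medians of -0.71, -0.65 and -0.68 in P19, -0.74, -0.63 and -0.65 in P19 NTES7, and -0.73, -0.59 and -0.62 in R1. The order of the 3 groups changed from array to array. The posterior genes were lowest on P19 arrays 1 and 2 (-0.66 and -0.72) and highest on P19 array 3 (-0.68) and on P19 NTES7 arrays 1 and 2 (-0.65 and -0.61).

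In HoxA, 7 of 10 genes were below the median on all 9 arrays. Hoxa2, which patterns the second pharyngeal arch, read 8.73 to 11.3 over the 9 arrays, and Hoxa10, which acts in the lumbar region and the uterus, read 9.97 to 11.9. Hoxa7, a gene of the thoracic region, read 16.3, 17.5 and 18 in P19, 17.1, 16.9 and 17.8 in P19 NTES7, and 21.5, 22 and 18.1 in R1. Its R1 arrays all lay above the others, but the difference to P19 was 0.24 on the log2 scale (95% interval 0.02 to 0.46, limma adjusted p = 0.0881). Hoxa4, a cervical gene, read 13.6 to 14.7 in P19, 12.8 to 17.1 in P19 NTES7 and 15.2 to 19.8 in R1.

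In HoxB, 6 of 9 genes were below the median on all 9 arrays. Hoxb1, known for the identity of a single hindbrain segment, read 7.81 to 10.5 over all arrays, and Hoxb13, at the posterior end of the cluster, read 7.5 to 9.63. Hoxb3, a hindbrain and neck gene, read 19.5, 19.5 and 18.5 in P19, 15.5, 16.3 and 23.4 in P19 NTES7, and 22.1, 18.7 and 19 in R1. The lines overlapped, with 1 P19 NTES7 array above the others. Hoxb9, which acts in the thoracic skeleton, read 21.5, 21.6 and 14.8 in P19, 21.6, 20.2 and 17.4 in P19 NTES7, and 21.5, 21.3 and 19.5 in R1, again with overlap. The 95% intervals of all 9 HoxB genes lay within a 2-fold change in all 3 comparisons.

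In HoxC, 9 of 9 genes were below the median on all 9 arrays, with values from 6.36 to 17.0. The median HoxC gene lay at -1.03, -1.06 and -1.02 against the array median on the P19 arrays, at -1.0, -1.01 and -0.73 on the P19 NTES7 arrays, and at -0.59, -0.58 and -0.75 on the R1 arrays. R1 arrays lay highest, although P19 NTES7 array 3 was level with the lowest of them. Gene by gene the shift was smaller, with a median R1 to P19 difference of 0.13 over the 9 genes, against 0.07 over all probe sets whose mean lay below the median.

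In HoxD, 7 of 9 genes were below the median on all 9 arrays, and the others were the posterior genes Hoxd11 and Hoxd13. Hoxd1, an anterior gene, read 10.9 to 13 in P19, 10.2 to 11.0 in P19 NTES7 and 10.1 to 11.6 in R1. Hoxd4, which patterns cervical vertebrae, read 12.5, 13.6 and 12.5 in P19, 8.84, 10.7 and 12 in P19 NTES7, and 11.5, 10.7 and 8.76 in R1. All P19 values lay above the rest. The log2 differences were -0.33 for R1 (limma adjusted p = 0.0717) and -0.30 for P19 NTES7 (0.131), which share the P19 arrays.

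No Hox gene passed the study's limits in any comparison. With limma across all 28853 probe sets (adjusted p under 0.01 and fold over 2), 0 of 37 were called between R1 and P19, where 3.70% of all probe sets were higher in R1 and 3.70% lower. Between P19 NTES7 and P19, 0 were called, against 1.55% and 1.36%, and between P19 NTES7 and R1, 0 were called, against 1.99% and 2.53%. Among probe sets whose mean lay below the median these shares were 1.33% and 0.679%, 0.360% and 0.243%, and 0.277% and 0.811%, so that calls were rare at this level for any gene. One-way analysis of variance with the study's limits also called 0 in each comparison, as it had to, since no difference reached the fold limit.

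The intervals bound the differences. The 95% interval of the log2 difference lay within a 2-fold change for 36 of 37 genes between R1 and P19 (all but Hoxd11), for 36 between P19 NTES7 and P19 (all but Hoxa13), and for 35 between P19 NTES7 and R1 (all but both). Folds of probe sets near the bottom of an array are compressed by background signal, so these bounds hold for the measured intensities. At an unadjusted p under 0.05, R1 exceeded P19 for 10 genes and fell short for 1 (20.1% and 21.0% of all probe sets), P19 NTES7 exceeded P19 for 5 and fell short for 1 (13.9% and 15.8%), and P19 NTES7 exceeded R1 for 2 and fell short for 6 (18.3% and 16.4%).

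Most of the small differences placed R1 above P19. The R1 to P19 difference was above 0 for 30 of 37 genes, with a median of 0.11, while it was above 0 for 54.8% of all probe sets (median 0.03) and 65.4% of those whose mean lay below the median (0.07). Between P19 NTES7 and P19 it was above 0 for 26 genes (median 0.09; 70.0% and 0.07 among probe sets below the median), and between P19 NTES7 and R1 for 18 genes (median -0.01). The 3 arrays of the lines did not overlap for 12 genes higher and 1 lower in R1 than in P19 (22.6% and 22.6% of all probe sets), for 6 and 1 in P19 NTES7 against P19 (17.3% and 17.0%), and for 3 and 5 in P19 NTES7 against R1 (19.3% and 17.3%). Only the 12 genes, 32.4% of the members, exceed the share of all probe sets, and the other counts are below it. The share among probe sets whose mean lay below the median was not counted, so nothing is read from that excess.

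**Figure D2:**
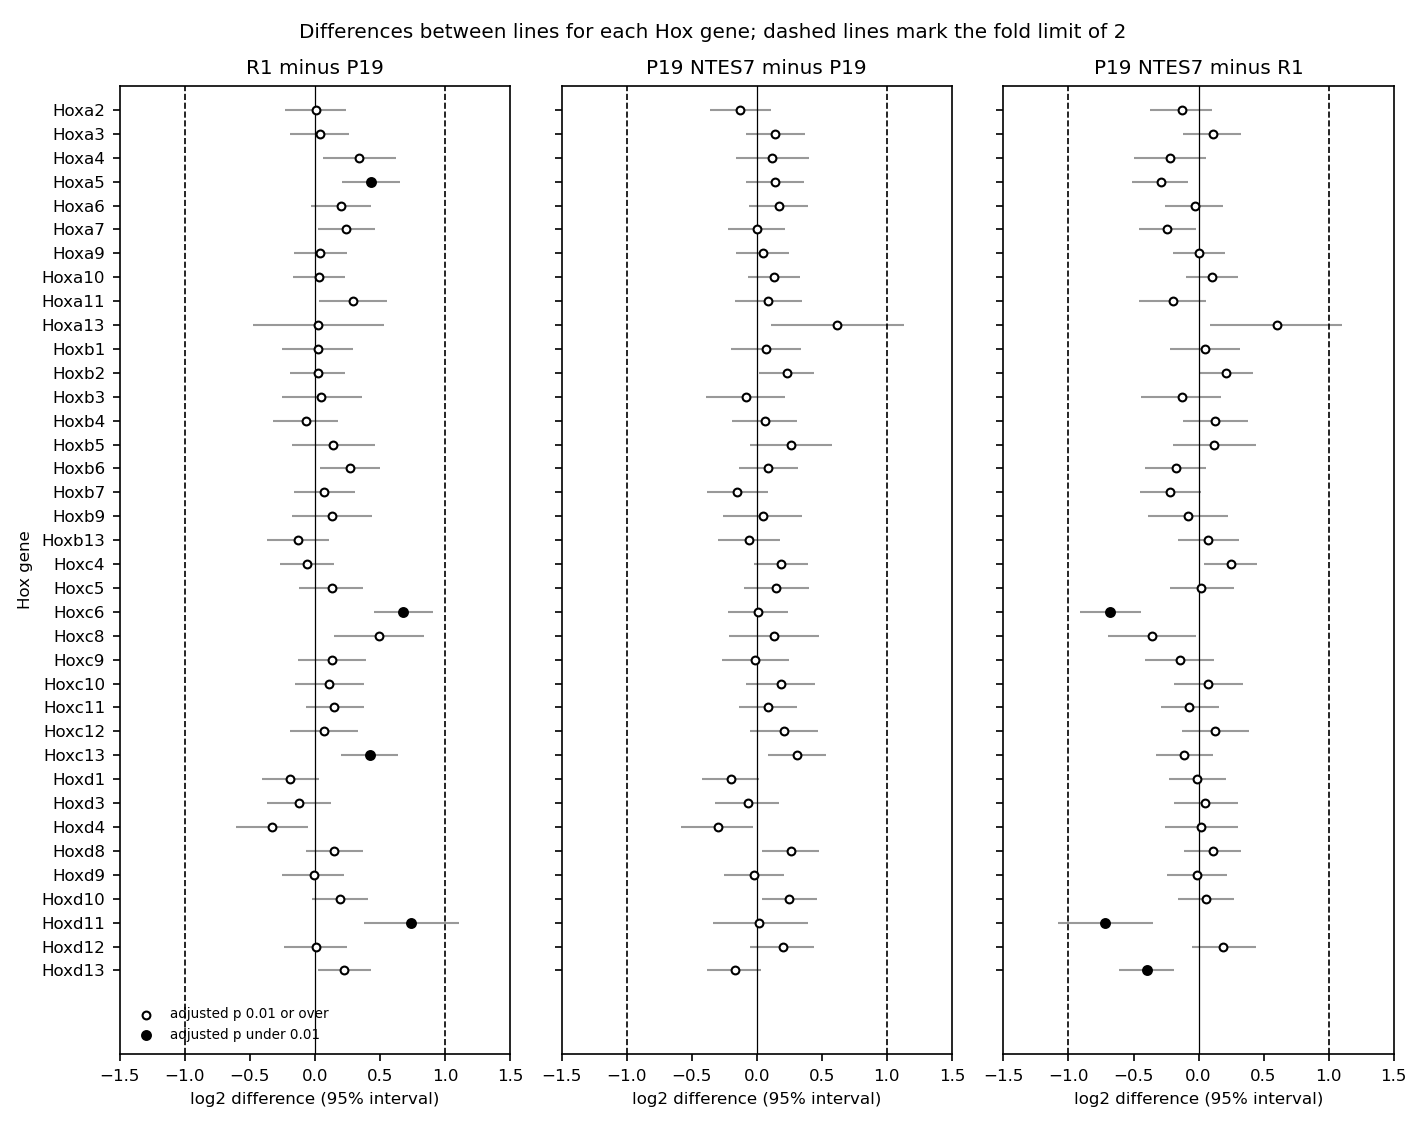
Log2 difference of each of the 37 Hox genes between lines (points) with its 95% interval (bars), for R1 minus P19, P19 NTES7 minus P19 and P19 NTES7 minus R1. Dashed lines mark the fold limit of 2, and filled points have a limma adjusted p under 0.01, which 4, 0 and 3 genes reached.

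Without the fold limit, limma gave 4 genes with R1 above P19 and 0 below at an adjusted p under 0.01 (10.1% and 12.9% of all probe sets, 5.20% and 3.62% of those below the median). They were Hoxa5, Hoxc6, Hoxc13 and Hoxd11. In P19 NTES7 against P19 there were 0 in either direction (4.71% and 6.59%, and 2.29% and 1.68% of those below the median), and in P19 NTES7 against R1 there were 0 higher and 3 lower (8.72% and 8.36%, and 2.5% and 3.07%), namely Hoxc6, Hoxd11 and Hoxd13. These genes, and Hoxa13, were picked out after their values were seen, and the R1 arrays are shared between both comparisons. With 16 added to each intensity before log2, which shrinks differences of low values, the R1 to P19 differences were 0.25 for Hoxc6, 0.36 for Hoxd11, 0.15 for Hoxa5 and 0.15 for Hoxc13, and those of P19 NTES7 to R1 were -0.24 for Hoxc6, -0.35 for Hoxd11 and -0.20 for Hoxd13. The plot of single genes gives their arrays.

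**Figure D3:**
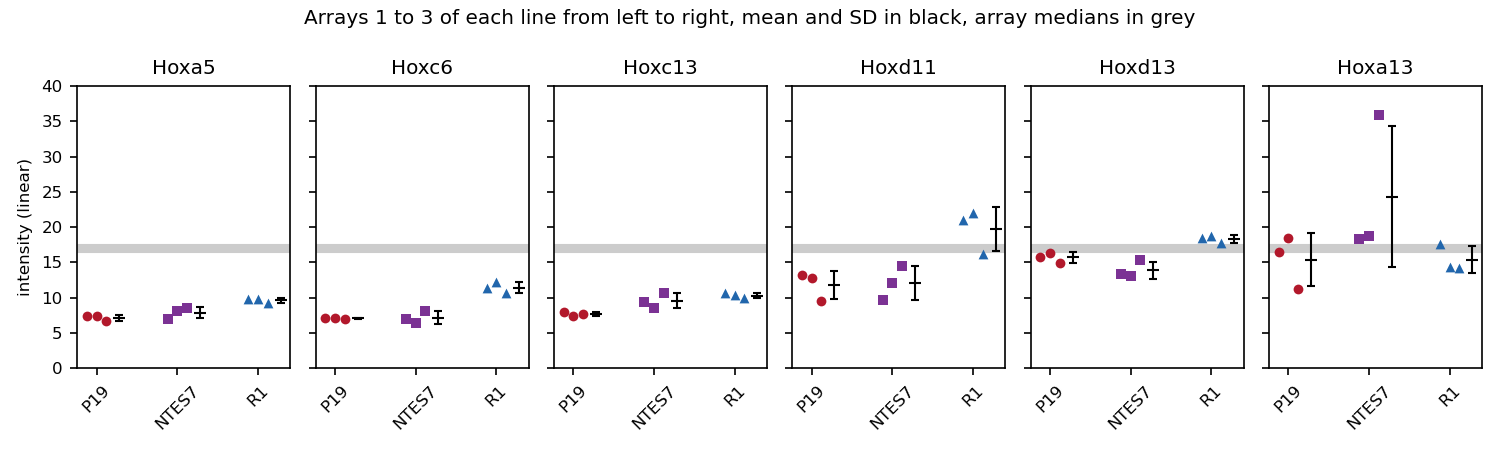
Intensity (linear axis from 0) of 6 Hox genes on arrays 1 to 3 of P19, P19 NTES7 and R1, with mean and SD of 3 arrays in black and the range of array medians in grey. R1 lies above P19 without overlap for Hoxa5, Hoxc6, Hoxc13, Hoxd11 and Hoxd13, and 1 P19 NTES7 array carries the high mean of Hoxa13.

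Hoxc6 (probe set 10427293), a gene of the thoracic region, read 7.07, 7.18 and 7.04 in P19, 6.99, 6.36 and 8.16 in P19 NTES7, and 11.4, 12.2 and 10.7 in R1. All R1 arrays were above all others, yet below the array median. The log2 difference between R1 and P19 was 0.68 (SE 0.11, 95% interval 0.45 to 0.91, limma adjusted p = 2.07e-04) and that between P19 NTES7 and R1 was -0.68 (adjusted p = 3.35e-04). P19 NTES7 and P19 differed by 0.01 (95% interval -0.22 to 0.24). Without R1 array 3 the first difference was 0.73 (adjusted p = 2.50e-04).

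Hoxd11 (probe set 10472953), which shapes the forearm and the kidney, read 13.2, 12.8 and 9.54 in P19, 9.61, 12.1 and 14.5 in P19 NTES7, and 21.0, 22 and 16.2 in R1. R1 again lay above both other lines without overlap, and R1 arrays 1 and 2 exceeded the array median. The log2 difference was 0.74 between R1 and P19 (SE 0.17, 95% interval 0.38 to 1.11, limma adjusted p = 0.00376) and -0.72 between P19 NTES7 and R1 (adjusted p = 0.00616). Without R1 array 3 they were 0.88 (adjusted p = 0.00147) and -0.86 (0.00234). The adjusted p of the first rose to between 0.0158 and 0.0215 without P19 array 3, R1 array 1 or R1 array 2, and that of the other to between 0.0214 and 0.0331 without P19 NTES7 array 1 or 2 or R1 array 1 or 2. P19 NTES7 and P19 differed by 0.02 (95% interval -0.34 to 0.39).

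Hoxa5 (probe set 10544768), needed for lung and neck structures, read 7.40, 7.36 and 6.63 in P19, 6.99, 8.10 and 8.50 in P19 NTES7, and 9.76, 9.83 and 9.24 in R1. Hoxc13 (probe set 10427268), which controls hair and nail formation, read 8.04, 7.39 and 7.69 in P19, 9.43, 8.54 and 10.7 in P19 NTES7, and 10.6, 10.4 and 9.95 in R1. Both had their highest mean in R1, by 0.43 (SE 0.10, limma adjusted p = 0.00465) and 0.42 (SE 0.10, adjusted p = 0.00585) over P19 on the log2 scale. Without R1 array 3 the differences were 0.46 (adjusted p = 0.00534) and 0.44 (0.00695), while without any other single array of P19 or R1 the adjusted p was between 0.0113 and 0.0230 for Hoxa5 and between 0.0129 and 0.0306 for Hoxc13. Hoxc13 was also above P19 on every P19 NTES7 array, by 0.31 (95% interval 0.09 to 0.53), with an adjusted p of 0.0529.

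Hoxd13 (probe set 10472946), a digit and genital gene at the end of its cluster, read 15.8, 16.4 and 14.9 in P19, 13.3, 13.1 and 15.3 in P19 NTES7, and 18.5, 18.7 and 17.7 in R1. P19 NTES7 lay below R1 without overlap, by a log2 difference of -0.40 (SE 0.10, limma adjusted p = 0.00743), or -0.42 (0.00792) without R1 array 3. Without P19 array 1 or 2, P19 NTES7 array 1 or 2, or R1 array 1 or 2, the adjusted p was between 0.0127 and 0.0369. Hoxa13 (probe set 10544805), its HoxA paralog, read 16.5, 18.5 and 11.2 in P19, 18.3, 18.8 and 35.9 in P19 NTES7, and 17.6, 14.4 and 14.2 in R1. The highest member value of the series was that of P19 NTES7 array 3. The difference to P19 was 0.62 (95% interval 0.11 to 1.13, adjusted p = 0.0892), and 0.30 (adjusted p = 0.354) without that array.

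Markers of fibroblasts, the feeder cell type, also differed between the lines. Of 21 measured markers, 16 were called higher in R1 and 12 in P19 NTES7, each against P19, and 4 were lower in P19 NTES7 than in R1. Their summed intensity was 1290 to 1340 in P19, 2500 to 3100 in P19 NTES7 and 3740 to 4410 in R1. Above the array median on all 3 arrays were 7 of the 21 for P19, 18 for P19 NTES7 and 20 for R1. In P19, Dcn (8.45), Prrx1 (8.74) and Pdgfra (9.79) were below it as means, while Col1a1 (49.2), Mmp2 (70.7), Fn1 (447) and Sparc (534) were above it. Fn1 and Sparc thus made up most of the P19 sum. Dcn read 80.6 in P19 NTES7 and 232 in R1. Sparc was lower than in P19 in both, at 389 and 454, and Mmp2 was lower in P19 NTES7 (52.5) but not in R1 (76.7). Fibroblasts can express Hox genes, and the part of these cells in the Hox values was not tested. Means in P19, P19 NTES7 and R1 were 7.13, 7.86 and 9.61 for Hoxa5, 7.71, 9.57 and 10.3 for Hoxc13, 7.09, 7.17 and 11.4 for Hoxc6, and 11.8, 12.1 and 19.7 for Hoxd11. For Hoxd13 they were 15.7, 13.9 and 18.3, with P19 NTES7 below P19. Of the markers of other tissues, 2 of 9 neural, 2 of 10 mesoderm and 0 of 8 endoderm markers were called higher in R1 than in P19, and 1, 0 and 1 lower. In P19 NTES7 against P19, 0, 4 and 1 were called higher and none lower. In P19 NTES7 against R1, 1, 1 and 1 were called higher, and 3, 0 and 0 lower. Means in P19, P19 NTES7 and R1 were 10.2, 10.3 and 26.4 for the neural marker Pax6 and 13.2, 9.95 and 51.7 for Neurod1. The neural marker Nes went the other way, at 75.6, 75.2 and 28.8. The part of such cells in the Hox values was not tested either.

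Most of the listed genes around the clusters were read higher, but not those nearest to them. Of 18 measured flanking genes, 14 were above the array median on all 9 arrays, with 4 of 5 beside HoxA, 3 of 4 beside HoxB, 3 of 4 beside HoxC and 4 of 5 beside HoxD. The nearest listed gene measured at each cluster was an exception, namely Evx1 (52.6 kb from HoxA), Skap1 (96.3 kb from HoxB), Smug1 (116 kb from HoxC) and Evx2 (6.71 kb from HoxD), with means between 8.54 and 14.2. The other 14 lay 60.7 to 910 kb away. Examples are Skap2, 143 kb from HoxA, at means of 73.8 for P19, 66.1 for P19 NTES7, and 73.9 for R1, Cbx5, 155 kb from HoxC, at 306, 231 and 269, and Mtx2, 60.7 kb from HoxD, at 88.6, 69.7 and 47.4. Evx1 and Evx2 are homeobox genes that end the HoxA and HoxD clusters. By limma, 0 of the 18 were called in any comparison, while 11, 5 and 6 had an unadjusted p under 0.05 in R1 against P19, P19 NTES7 against P19 and P19 NTES7 against R1. Of all probe sets, 20.1% were higher and 21% lower at that limit in the first comparison. The shares were 13.9% and 15.8% in P19 NTES7 against P19, and 18.3% and 16.4% in P19 NTES7 against R1.

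Noncoding RNAs made within the clusters were also read below the array median. Of 8 measured, 0 were above it on all 3 arrays of any line, and limma called 0, with 0 at an unadjusted p under 0.05 in each comparison. Hottip, at the posterior end of HoxA, read means of 7.37, 7.61 and 7.56 in P19, P19 NTES7 and R1. The precursors of the miRNAs printed above read 10.3, 10.3 and 11.1 for Mir10a and 6.0, 6.31 and 6.32 for Mir10b. For the miR-196 genes the means were 9.82, 7.91 and 10.7 (Mir196a-1), 11.5, 11.1 and 10.4 (Mir196a-2), and 8.41, 9.29 and 8.32 (Mir196b). Such probe sets do not report the mature miRNA.

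**Figure D4:**
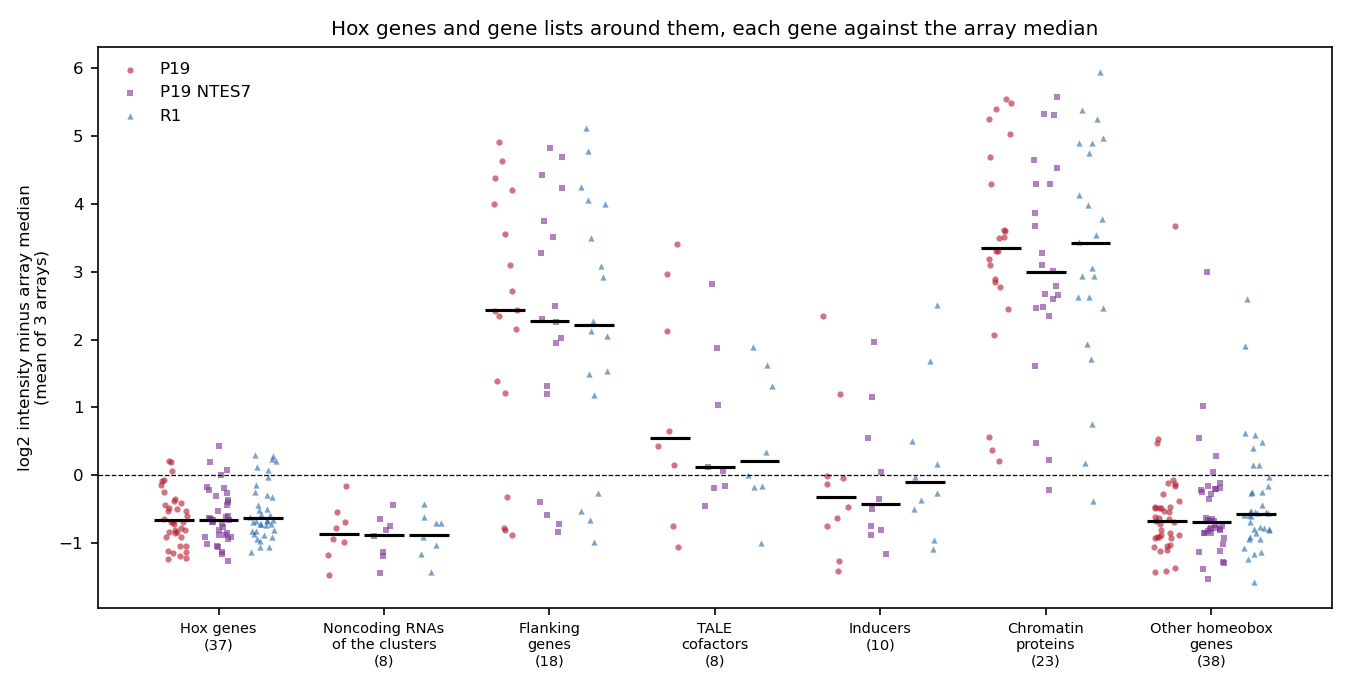
Log2 intensity minus the array median (mean of 3 arrays) for each gene of 7 lists in P19, P19 NTES7 and R1, with the number of genes in brackets. Black lines are the list medians, averaged over the 3 arrays; Hox genes lie at -0.66, -0.66 and -0.63, flanking genes at 2.43, 2.28 and 2.22 and chromatin proteins at 3.35, 2.99 and 3.42.

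Several TALE partners of Hox proteins were called between the lines. Of 8 measured, against P19, R1 had 1 called higher and 3 lower, and P19 NTES7 had 0 higher and 2 lower. Pknox2, a Prep family member, read 76.8, 81.4 and 61.4 in P19, 15.5, 17.6 and 13.3 in P19 NTES7, and 8.93, 7.60 and 8.89 in R1. It was lower in R1 by a log2 difference of -3.11 (SE 0.13, limma adjusted p = 9.83e-10) and in P19 NTES7 by -2.24 (adjusted p = 9.96e-08). Pbx2 read means of 130, 63.3 and 51.7, with log2 differences to P19 of -1.33 in R1 and -1.05 in P19 NTES7, both called. Pbx3 read 175, 121 and 62.6 and was called lower in R1 only, and its P19 NTES7 difference of -0.53 passed the p but not the fold limit. Meis1 went the other way, at 9.86, 15.2 and 21.6, with a log2 difference of 1.12 between R1 and P19 (adjusted p = 4.88e-06).

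Among 10 measured upstream regulators, none of the caudal genes was called, with means of 16.2, 17.8 and 19 for Cdx1, 10.9, 10.2 and 14.2 for Cdx2, and 6.92, 7.71 and 8.07 for Cdx4 in P19, P19 NTES7 and R1. Cdx2 and Cdx4 were below the array median on all arrays, and Cdx1 was above it on 0, 2 and 3 arrays of these lines. The retinoic acid receptor gene Rarg and Cyp26a1, which encodes an enzyme that degrades retinoic acid, were called higher in R1 than in P19. Rarg read 38.1, 25.2 and 96.2, and Cyp26a1 read 6.24, 12.2 and 24.2. Rarg was also called lower in P19 NTES7 than in R1, with a log2 difference of -1.94. Egr2, a hindbrain regulator, read 38.7 in P19 NTES7 and was called higher there than in either other line (16.5 each).

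Chromatin proteins that control the clusters were read above the array median, with 23, 22 and 22 of 23 measured genes above it on all 3 arrays of P19, P19 NTES7 and R1. In R1 against P19, the Polycomb subunit gene Eed was called higher (means 187, 250 and 499 in P19, P19 NTES7 and R1, log2 difference 1.42), and Kdm6b, a demethylase of the Polycomb mark (189, 120 and 65.4, -1.54), Cbx2 (142, 110 and 55.6, -1.36) and Hdac3 (537, 398 and 266, -1.02) were called lower. P19 NTES7 lay between the others in each of these 4 genes, with 0 of 23 called against P19 by limma and Eed called lower than in R1 (log2 difference -1.0). Against P19, 12 of the 23 had an unadjusted limma p under 0.05 in P19 NTES7. Of all probe sets, 13.9% were higher and 15.8% lower at that limit. Ezh2, the Polycomb methyltransferase, read 626, 683 and 645.

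Homeobox genes outside the clusters were also low for the most part. Of 38 measured, 3, 4 and 6 were above the array median on all 3 arrays of P19, P19 NTES7 and R1, and the list median was -0.67, -0.69 and -0.57 on the log2 scale against the array median. By limma, 3 were called higher in R1 than in P19 (Pax6, Lhx1 and Gbx2) and 1 lower (Otx2), and whether the lists differ was not tested. For P19 NTES7, 1 was called higher than in P19 and 3 lower than in R1. Gbx2, a gene of the midbrain and hindbrain border, read 16.4, 15.5 and 13.8 in P19, 16, 14.9 and 13.7 in P19 NTES7, and 65.0, 73.1 and 53.4 in R1.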

How the data were processed

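The deposited values are microarray intensities on the linear scale, which the authors made from 9 Affymetrix arrays by RMA (background correction, quantile normalization and probe set summary) in R/Bioconductor; a version was not given in the sources used here. RMA reduces differences near background. Values were put on the log2 scale, and all 28853 probe sets of the 9 arrays entered 1 fit with limma 3.58.1 (R 4.3.3; lmFit, contrasts, eBayes) with line as the only term. A call needed a Benjamini-Hochberg adjusted p under 0.01 over all probe sets and a fold over 2; the study used the same limits on an unadjusted one-way analysis of variance. The script was tested on simulated data. The annotation gave 21789 probe sets 1 symbol, 1621 several and 5443 none; genes were named only from the first. Intervals are 95% intervals of the fit. The number of arrays limits the precision. Members and lists (fibroblast, pluripotent, neural, mesoderm and endoderm markers, cofactors, inducers, chromatin, flanking, noncoding and other homeobox genes) were chosen with earlier results of these data known. By rule, members called, or above 2 times the array median on all 3 arrays of a line, were to be shown on every array. None was either, so the members shown were chosen after their values were seen. From other lists, at most 4 called genes a comparison were to be named, but some called genes are only counted or not given. Of the 10 pluripotent markers, 6 were called higher in R1 and 6 in P19 NTES7 than in P19, and 5 lower in P19 NTES7 than in R1. Alternatives changed centring, normalization, offset, filter, variance model, test, thresholds, block and arrays.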

Additional observations from a re-analysis of the deposited data

How the results depend on the processing

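The count of 0 called Hox genes held in all 3 comparisons under centring, quantile normalization and each array left out (0 to 0). It was also 0 with an offset of 16, the pair of lines alone, an intensity trend, and one-way analysis of variance with and without adjustment. A filter on dim probe sets gave 0 but left 4 Hox genes. These last settings leave the log2 differences unchanged, or shrink them for the offset, and none exceeded 0.74 in the main fit. The fold limit thus fixed the 0 there in advance, and that 0 shows no stability. Without the fold limit, at adjusted p under 0.05, 5 genes passed in R1 against P19, 0 in P19 NTES7 against P19 and 4 in P19 NTES7 against R1. The share of all probe sets at 0.05 was not counted, so nothing is read from these counts. At 0.01, an alternative chosen after seeing the data, 4, 0 and 3 passed. The shares of all probe sets higher and lower at 0.01 were 10.1% and 12.9%, 4.71% and 6.59%, and 8.72% and 8.36%. Hox genes above the array median numbered 1 (P19), 1 (P19 NTES7) and 4 (R1). Above the 60th percentile there were 0, 0 and 0, and on at least 2 arrays 3, 3 and 6. Leaving out 1 array gave 1 to 2 in P19 (2 without array 1 or 3), 1 to 2 in P19 NTES7 (2 without array 2 or 3) and 4 to 6 in R1 (6 without array 3). The probe set alternative gave no value, since each gene has 1.

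Same-numbered arrays did not deviate together (r from -0.22 to 0.04 over 9 pairs). For arrays of other numbers in different lines r ran from -0.15 to 0.207 over 18 pairs. These values do not show how the samples were handled or paired. With the replicate block, 0 Hox genes were called in each comparison, which the fold limit fixed, since the block leaves the log2 differences unchanged. The filter on dim probe sets removed Hoxc6, Hoxd11, Hoxa5, Hoxc13 and Hoxd13, so it is not among the 15 alternatives for them. Those that left out an array of the line not compared kept the difference and changed only the spread. Hoxc6 passed adjusted p under 0.01 by limma under all 15 (R1 against P19 at most 0.00174). In that comparison Hoxd11 lost it in 4, Hoxa5 in 7 and Hoxc13 in 8 of 15. In P19 NTES7 against R1, Hoxd13 lost it in 9 and Hoxd11 in 6 of 15. No direction of these calls turned, but with the offset of 16 the log2 difference of Hoxc6 fell from 0.68 to 0.25 for R1 against P19 and went from -0.68 to -0.24 for P19 NTES7 against R1, with adjusted p of 0.00162 and 0.00242. The cause was not tested. The analysis of variance gives 1 p over the 3 lines and was not used for single genes. Low signal over background limits every Hox value.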
